A study of Mus musculus with 12 samples.

Results

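The 10 genes described here encode AP-1 and immediate-early transcription factors: the Jun proteins Jun, Junb and Jund, the Fos proteins Fos, Fosb, Fosl1 and Fosl2, the related factors Atf3 and Maff, and the zinc finger factor Egr1. They were chosen by symbol, and all 10 were among the 23329 genes of the deposited count tables. All 10 also passed the filter on low counts that left 13038 genes for testing, and their counts ran from 37 for Fosb to 9163 for Fosl2 in a library. The cells were stromal cells grown from the small intestine of mice on the C57BL6/J background, called intestinal myofibroblasts in the sample labels, cultured to passage 2 to 3 and given LPS of Escherichia coli or PBS for 6 h. The labels give the final LPS concentration as 10 µg/µl, and whether this unit is right could not be checked. The 4 groups were embryonic stroma (E14.5) with PBS, embryonic stroma with LPS, adult stroma with PBS and adult stroma with LPS, each of 3 libraries. Each group came from 3 independent cultures, an embryonic culture being a pool of 6 embryos, and the age of the adult mice was not given in the sources used here. Polyadenylated RNA was sequenced from whole cultures, so more RNA per cell cannot be told apart from more cells of a type.

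AP-1 is a dimer of basic leucine zipper proteins. Jun proteins pair with each other, with Fos proteins or with ATF proteins, whereas Fos proteins need a Jun partner, and Maff is a small Maf protein that lacks a transactivation domain. Signalling from Toll-like receptors reaches these genes through MAP kinases and NF-kB, and many of them are immediate-early genes whose mRNA rises without new protein synthesis and then falls again within hours. A single time of 6 h therefore gives the level of these mRNAs at that time and not the course of the response.

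Fibroblast genes were abundant in all 12 libraries, with 22900 to 48000 CPM (counts scaled to a common library size) summed over 13 fibroblast and myofibroblast markers. Libraries nevertheless differed in markers of other cells. The sum of 16 macrophage markers was 299, 526 and 3500 CPM in embryonic stroma with PBS (replicates 1, 2 and 3), 230, 1090 and 2470 with LPS, 213, 22.4 and 54.1 in adult stroma with PBS and 224, 17.8 and 52.7 with LPS. Embryonic replicate 3 was highest in both treatments. None of the 16 was at 0 in every library of either embryonic group or of adult stroma with PBS, and 1 was in adult stroma with LPS. The sum of 6 mesothelial markers was 751 and 632 CPM in embryonic replicate 2 with PBS and LPS, 145 to 156 in the other 4 embryonic libraries and 434 to 1430 in adult libraries, where replicate 1 was highest. The sum of 8 endothelial markers was 1830 and 1750 CPM in adult replicate 2 with PBS and LPS and 396 and 362 in adult replicate 3, against 15.7 to 37.9 in the other 8 libraries. Sums of 5 neutrophil markers (at most 5.63 CPM) and of 7 lymphocyte markers (at most 4.27 CPM) were low throughout. Total counts were 18850224 to 32672370 per library, where 3 counts correspond to 0.0908 to 0.145 CPM.

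Promoter sequences of 8 of the 10 genes were searched (RefSeq, GRCm38.p6). Fosl1 had no entry among the promoters used. Egr1 was left out before the search, so its absence is not a failed match. The 200 bases upstream of the start site are shown for Junb and Atf3, the factors with the largest differences between LPS and PBS in embryonic stroma, and for Jun and Fos, the eponymous AP-1 genes, for comparison. Capitals mark a match to one of the searched motifs, on either strand.
Junb, chr8:84978749-84978948, minus strand: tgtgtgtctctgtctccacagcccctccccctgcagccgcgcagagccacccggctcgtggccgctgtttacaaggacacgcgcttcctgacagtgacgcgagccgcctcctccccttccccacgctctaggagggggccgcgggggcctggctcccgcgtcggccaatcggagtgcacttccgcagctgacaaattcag
Atf3, chr1:191183334-191183533, minus strand: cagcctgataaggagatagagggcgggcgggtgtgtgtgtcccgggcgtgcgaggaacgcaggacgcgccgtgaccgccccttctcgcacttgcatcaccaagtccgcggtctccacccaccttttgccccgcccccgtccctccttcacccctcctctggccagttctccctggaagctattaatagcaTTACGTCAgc
Jun, chr4:95052223-95052422, minus strand: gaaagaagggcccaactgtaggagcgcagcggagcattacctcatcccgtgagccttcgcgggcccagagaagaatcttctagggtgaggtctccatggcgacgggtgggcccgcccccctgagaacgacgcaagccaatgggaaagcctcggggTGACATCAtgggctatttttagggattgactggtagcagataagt
Fos, chr12:85473690-85473889, plus strand: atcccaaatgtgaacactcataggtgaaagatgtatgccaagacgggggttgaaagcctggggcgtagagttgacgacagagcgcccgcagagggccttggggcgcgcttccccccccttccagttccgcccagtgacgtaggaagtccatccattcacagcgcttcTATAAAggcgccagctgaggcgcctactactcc

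The motifs were searched from 250 bases before to 50 after each start. A cyclic AMP response element with loosened letters, TGACNTNA, was found in Atf3 at -10, in Jun at -45 and in Maff, and in 16.3% of 32851 promoter windows of that length. This loosened form was added after the windows had been read. Its strict form TGACGTCA, which overlaps it, was found in Maff alone of the 8 genes and in 1.79% of windows. The AP-1 element TGANTCA was in none of the 8 and in 7.81% of windows, and the CArG box was in none of the 8 and in 1.63%. The promoter of Egr1 was not searched for either motif. An NF-kB motif was in Fos, Fosb, Fosl2 and Maff and in 8.46% of windows, and the EGR motif GCGNGGGCG was in Fosb, Fosl2 and Maff and in 5.55%. TATAAA was in Fos at -33 and in Junb at the start itself, beyond the stretch shown, and in 13.6% of windows. The 8 genes had 10 windows in all. Maff had several, with its matches in windows 2 and 3, and so had more chances to match than the other genes. These matches describe the letters of the windows.

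Of the 10 factors, Junb rose with LPS in embryonic stroma and was the only one whose LPS libraries were all above its PBS libraries in both stages. The first question was which factors stood at another level after 6 h of LPS. By the quasi-likelihood test of edgeR, with p-values adjusted over every tested gene (Benjamini-Hochberg) and 0.05 as the threshold, Junb alone of the 10 rose in embryonic stroma, where 2.67% of tested genes rose, and DESeq2 likewise called Junb alone, beside 5.25% of tested genes. None passed the test in adult stroma, where 0.598% of tested genes rose; 1 factor (Junb) had an unadjusted p under 0.05, as 5.58% of tested genes did, and DESeq2 called Junb and 2.25% of tested genes. Within each stage, the LPS and the PBS library that share a number varied together, and a fit with the replicate number as a block called 5 factors in embryonic stroma (Junb, Atf3, Fosl1, Egr1 and Maff), against 9.43% of all tested genes that rose in that fit. The same fit called Junb in adult stroma, against 4.69% of tested genes. Without replicate number 1 it called 4 factors in embryonic stroma (Fosb, Junb, Atf3 and Egr1, beside 5.55% of tested genes) and none in adult stroma (1.08%). Without number 3, which includes the embryonic culture richest in macrophage markers, it called 3 factors in embryonic stroma (Fosl1, Junb and Atf3, beside 5.86% of tested genes) and 2 in adult stroma (Fosl1 and Junb, beside 3.96%). Without number 2, which includes the adult culture richest in endothelial markers, it called the same 5 in embryonic stroma (11.2% of tested genes) and none in adult stroma (4.74%). When the 6 libraries of each stage were fitted alone, no factor was called in embryonic stroma (0.0317% of tested genes) and Junb was in adult stroma (1.81%). With the block added, Junb, Atf3 and Egr1 were called in embryonic stroma (5.63%) and Fosl1, Junb, Egr1 and Maff in adult stroma (14.4%). With the block, fold changes of all 10 factors were positive in both stages, with a median of 0.79 in embryonic and 0.35 in adult stroma on the log2 scale, beside medians of 0.0013 and -0.0089 over all tested genes.

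**Figure D1:**
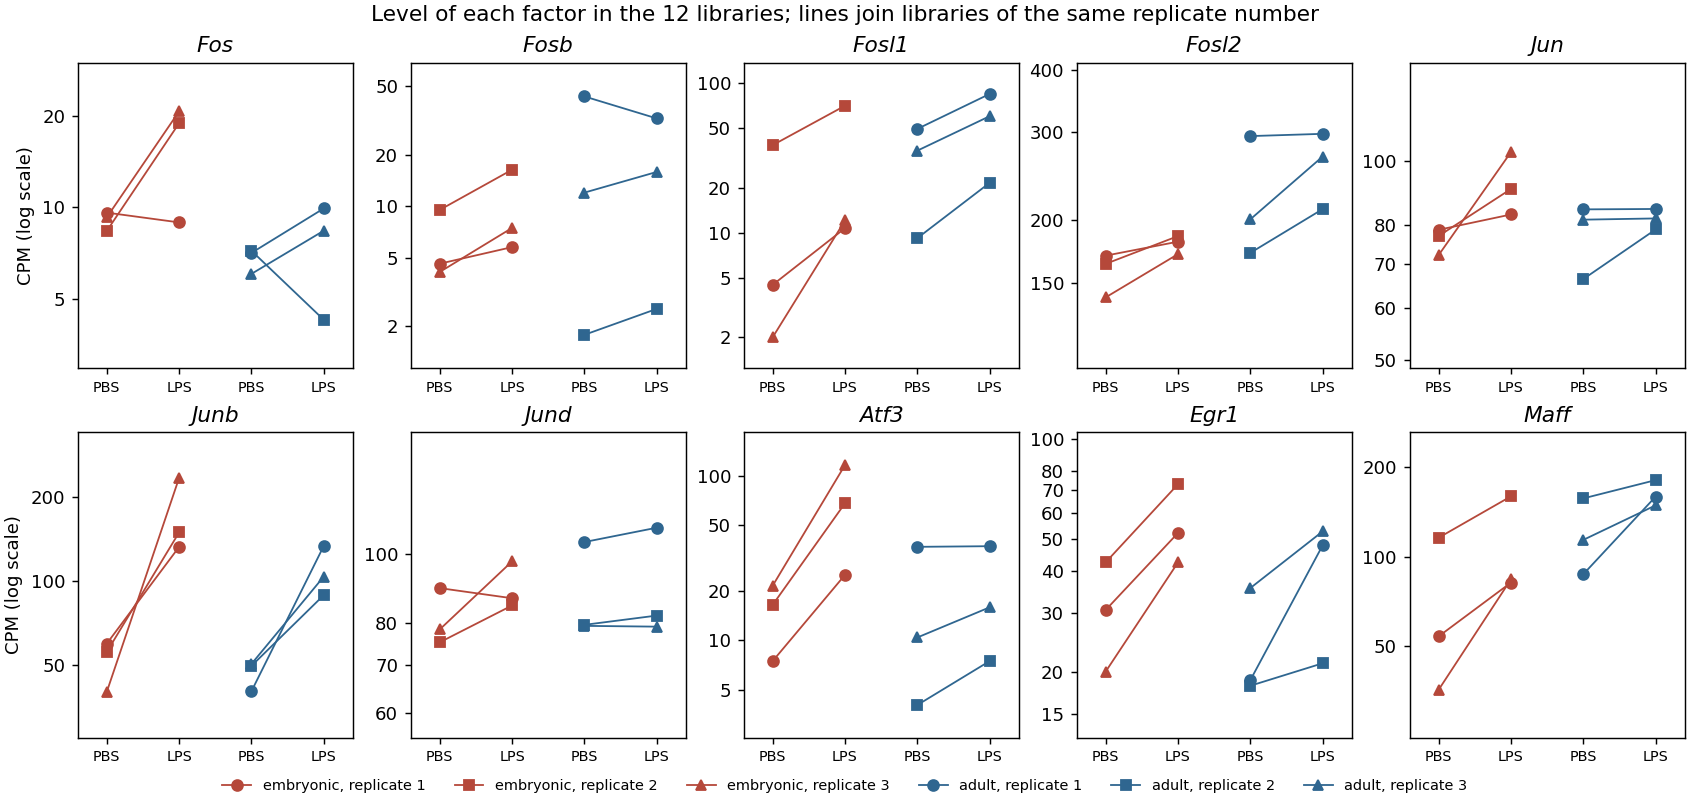
CPM of each factor (log axis, a scale of its own in each panel) in the 12 libraries, with lines that join the PBS and LPS libraries of the same replicate number within embryonic (red) and adult (blue) stroma. Junb separates by treatment in both stages, from 40.0 to 59.7 CPM with PBS and from 89.2 to 234.8 CPM with LPS, whereas Fosb, Fosl1 and Atf3 are spread by culture.

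Junb encodes a Jun protein that is a weaker activator than Jun at many promoters and can oppose it. Its level was 59.7, 55.7 and 40.0 CPM in embryonic stroma with PBS and 133, 150 and 235 CPM with LPS. The adult libraries had 40.3, 49.7 and 50.5 CPM with PBS and 134, 89.2 and 104 CPM with LPS. Every LPS library was above every PBS library in both stages, a pattern shown by 6.94% of all tested genes in embryonic and 8.74% in adult stroma. The log2 fold change was 1.76 (SE 0.24, edgeR adjusted p = 0.0053) in embryonic stroma, and 1.73 (SE 0.27, adjusted p = 0.0051) with the block. Fitted on the embryonic libraries alone it was 1.74 and did not pass (adjusted p = 0.109). It was 1.23 (SE 0.24, edgeR adjusted p = 0.058) in adult stroma and 1.22 (SE 0.27, adjusted p = 0.036) with the block. The adult call was lost without replicate number 1 (adjusted p = 0.27) or 2 (adjusted p = 0.087), and without the block the adult value passed when embryonic LPS replicate 1 (adjusted p = 0.048) or 3 (adjusted p = 0.022) was left out of the shared fit. The embryonic fold was larger in replicate 3 (5.86) than in replicates 1 and 2 (2.22 and 2.69), and the call held without that number (1.30, adjusted p = 0.0088, with the block). Adult folds were 3.32, 1.80 and 2.06.

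Embryonic replicate 3, with the most Junb after LPS and the least with PBS, also had the highest macrophage sum in both treatments. Adult replicate 1, which had the highest macrophage sum of the adult cultures, likewise had the most Junb of them with LPS and the least with PBS. The part of other cell types in these differences was not tested.

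Jun, the founding member of AP-1, differed little. It was at 78.7, 77.0 and 72.1 CPM in embryonic stroma with PBS and at 83.0, 90.7 and 103 CPM with LPS. Its adult levels were 84.5, 66.3 and 81.5 CPM with PBS and 84.6, 78.8 and 81.9 CPM with LPS. The embryonic groups did not overlap and the adult groups did. Its log2 fold change with the block was 0.30 (95% interval 0.08 to 0.52, edgeR adjusted p = 0.079) in embryonic and 0.09 (-0.13 to 0.31) in adult stroma, neither past the test.

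Jund, the Jun protein that is usually made without stimulation, was at 89.6, 75.3 and 78.4 CPM in embryonic stroma with PBS and at 86.7, 84.7 and 97.6 CPM with LPS. Its adult levels were 104, 79.6 and 79.4 CPM with PBS and 109, 82.0 and 79.2 CPM with LPS. Groups overlapped in both stages, and the 95% interval of the log2 fold change with the block was -0.01 to 0.36 in embryonic and -0.14 to 0.23 in adult stroma.

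The make-up of the Jun family differed between treatments. Per kilobase of exon, Junb made up 23.6% ± 3.2 (SD, n = 3) of the summed Jun, Junb and Jund level in embryonic stroma with PBS and 46.8% ± 5.4 with LPS. In adult stroma its share was 21.2% ± 4.1 with PBS and 37.1% ± 2.4 with LPS. Jund went from 51.3% ± 2.9 to 34.6% ± 4.0 in embryonic and from 53.9% ± 4.4 to 42.4% ± 2.0 in adult stroma, although its own level did not pass the test. Jun went from 25.2% ± 1.3 to 18.6% ± 1.6 and from 25.0% ± 1.9 to 20.4% ± 2.4. The shares of all 3 genes did not overlap between PBS and LPS libraries in either stage. The summed level of the family was 87.0 to 104 CPM per kilobase in embryonic PBS libraries and 136 to 193 in LPS libraries, and 90.1 to 106 and 113 to 150 in adult libraries. Counted on the longest transcript of each gene, the Junb shares were 28.2% and 52.8% in embryonic and 25.4% and 42.9% in adult stroma.

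**Figure D2:**
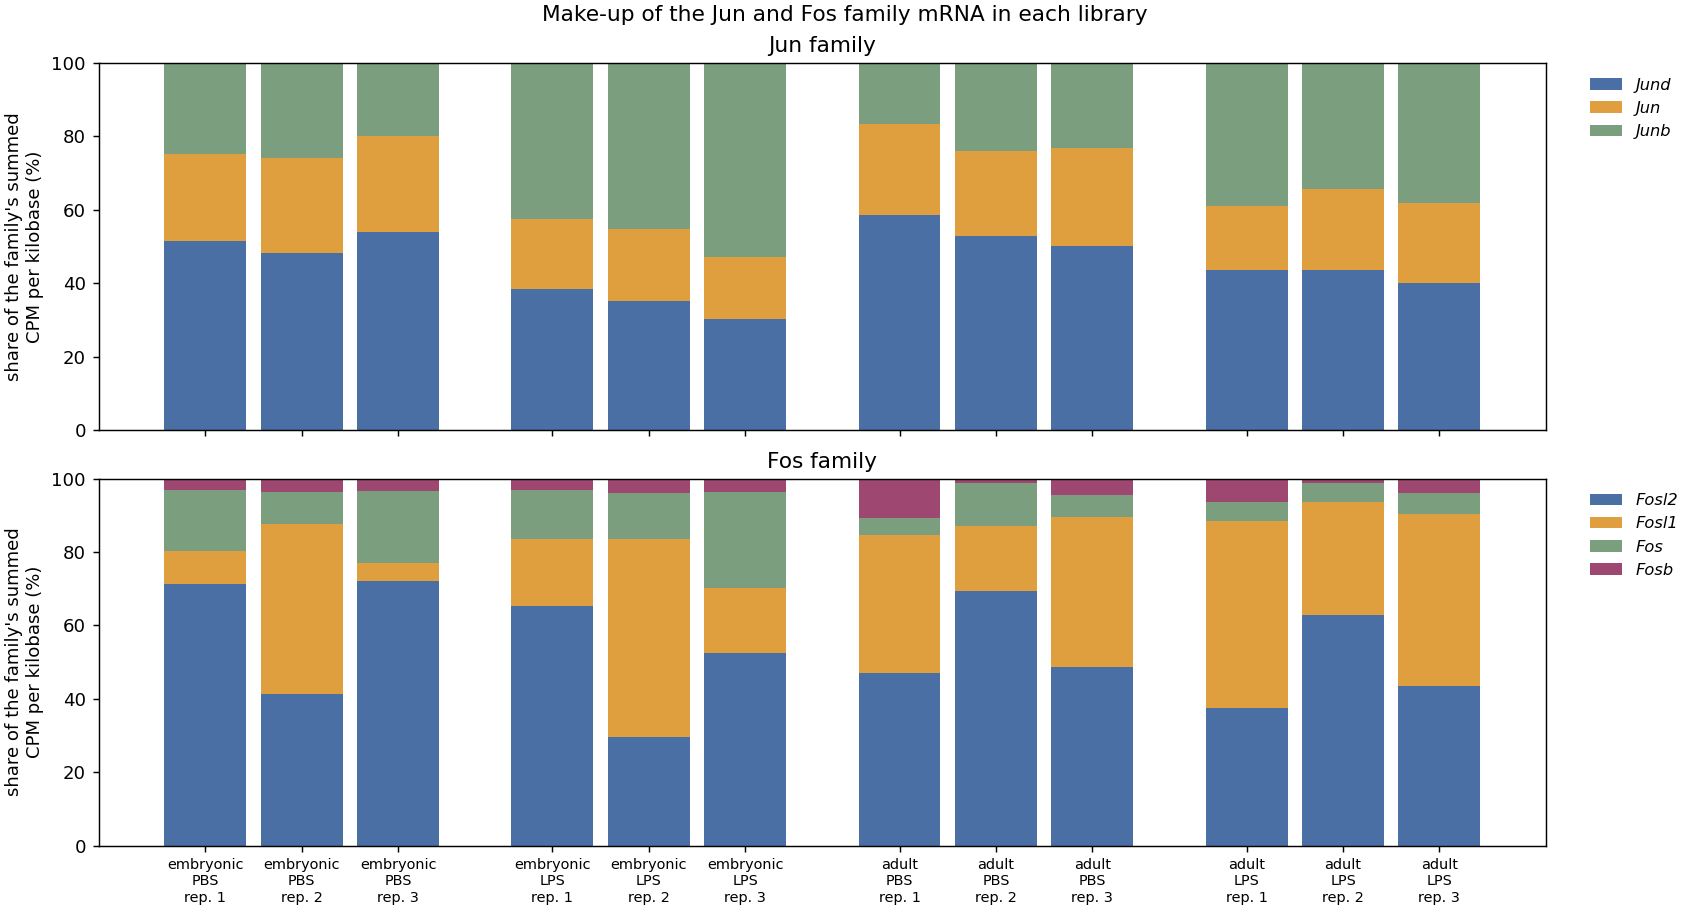
Share of each gene in the summed CPM per kilobase of exon of the Jun family (upper panel) and of the Fos family (lower panel), 1 bar per library, in percent. The share of Junb is 20.0% to 25.9% in embryonic PBS and 42.5% to 52.9% in embryonic LPS libraries, while the shares of Fosl2, Fosl1 and Fos overlap between treatments. Within every pair of the same number, the share of Fosl2 is lower and that of Fosl1 higher with LPS.

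Among the Fos genes, Fosl2 was the most stable and Fosl1 and Fosb differed most between cultures. Fos, the prototype of an immediate-early gene, stood at only 9.60, 8.35 and 9.26 CPM in embryonic stroma with PBS and at 8.91, 18.9 and 20.7 CPM with LPS. In adult stroma it was at 7.07, 7.19 and 6.03 CPM with PBS and at 9.91, 4.25 and 8.37 CPM with LPS. Embryonic replicates 2 and 3 were 2.26-fold and 2.23-fold higher with LPS, and replicate 1 was at 0.929 of its PBS level. The log2 fold change was 0.87 (SE 0.35, edgeR adjusted p = 0.36) in embryonic stroma and 0.79 (adjusted p = 0.16) with the block, and 0.16 (SE 0.35) and 0.10 in adult stroma, none past the test.

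Fosb, a Fos protein with a truncated form known from neurons, was at 4.63, 9.54 and 4.14 CPM in embryonic stroma with PBS and at 5.79, 16.4 and 7.49 CPM with LPS. The adult libraries had 43.7, 1.78 and 12.03 CPM with PBS and 32.6, 2.53 and 15.9 CPM with LPS. The highest adult PBS library had 24.5 times the level of the lowest, and the order of the 3 adult cultures was the same with LPS. All 3 embryonic pairs were higher with LPS, and the log2 fold change with the block was 0.69 (SE 0.20, edgeR adjusted p = 0.062). In adult stroma it was 0.09 with the block (95% interval -0.37 to 0.56) and -0.17 without it.

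Fosl1 encodes Fra-1, known from invasive and wound-edge cells. Its level was 4.48, 38.6 and 2.00 CPM in embryonic stroma with PBS and 10.7, 70.9 and 12.1 CPM with LPS. Its adult levels were 49.6, 9.21 and 35.5 CPM with PBS and 85.1, 21.6 and 60.4 CPM with LPS. All 6 pairs were higher with LPS, by 1.70-fold to 5.89-fold, yet the groups overlapped in both stages. The log2 fold change in embryonic stroma was 1.11 (SE 1.13, edgeR adjusted p = 0.95), and with the block it was 1.49 (SE 0.27, adjusted p = 0.010) and passed the test. Without replicate number 1 it did not pass (adjusted p = 0.10). In adult stroma the value with the block was 0.92 (SE 0.25, adjusted p = 0.080). With the stages fitted separately and blocked, the adult value passed (0.90, adjusted p = 0.00105) and the embryonic one did not (adjusted p = 0.0622). Fosl1 overlaps Ccdc85b, which lies on the opposite strand (GRCm38, chromosome 19, 5447698 to 5455938 and 5453163 to 5457563), and counts of its own strand were used.

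Fosl2, which encodes Fra-2, had the highest mean CPM of the 10 in each group, but not the highest level per kilobase. It was at 170, 164 and 140 CPM in embryonic stroma with PBS and at 181, 186 and 171 CPM with LPS. In adult stroma it was at 295, 172 and 201 CPM with PBS and at 298, 211 and 268 CPM with LPS. Embryonic LPS libraries were all above embryonic PBS libraries by a small margin, with a log2 fold change of 0.22 (95% interval 0.01 to 0.42, edgeR adjusted p = 0.16, with the block). The adult value was 0.25 (0.05 to 0.45, adjusted p = 0.18), and neither passed the test.

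Per kilobase, Fosl2 made up 61.6% ± 17.6 (SD, n = 3) of the Fos family in embryonic stroma with PBS and 49.2% ± 18.0 with LPS, and 55.0% ± 12.5 and 48.0% ± 13.2 in adult stroma. Fosl1 made up 20.1% ± 22.9, 30.0% ± 20.7, 32.1% ± 12.6 and 42.9% ± 10.7 in the same order of groups. Fos itself made up 15.0% ± 5.7 and 17.3% ± 7.7 in embryonic and 7.51% ± 3.86 and 5.32% ± 0.25 in adult stroma. These shares overlapped between PBS and LPS libraries within each stage. Within every pair of libraries with the same number, however, the Fosl2 share was lower and the Fosl1 share higher with LPS. The shares were not tested. Fosb held at most 10.8% of the family in any library.

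Atf3, a stress-induced factor known to damp cytokine genes in macrophages, had the largest fold change of the 10 in embryonic stroma. Its embryonic level was 7.48, 16.4 and 21.4 CPM without LPS and 25.0, 68.0 and 116 CPM with it, and the groups did not overlap. The adult libraries had 37.0, 4.05 and 10.4 CPM with PBS and 37.3, 7.49 and 15.9 CPM with LPS. The embryonic pairs were higher with LPS by 3.32-fold, 4.13-fold and 5.40-fold, and the adult pairs by 1.01-fold, 1.83-fold and 1.52-fold. The embryonic log2 fold change was 2.23 (SE 0.87, edgeR adjusted p = 0.33) without the block and 2.12 (SE 0.18, adjusted p = 0.00020) with it, and the call with the block held without each replicate number in turn. In adult stroma the values were 0.25 (SE 0.84) and 0.46 (SE 0.18, adjusted p = 0.24).

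Within each of the 4 groups, the order of the 3 libraries by Atf3 was the order by the macrophage sum, which was so for 1.21% of all tested genes and for no other factor of the 10. Across stages the order was not kept: adult replicate 1, with a macrophage sum of 213 CPM, had 37.0 CPM of Atf3 with PBS, and embryonic replicate 3, with 3500 CPM, had 21.4 CPM. In adult stroma the order was also the reverse of that by the endothelial sum. Between PBS and LPS the macrophage sum went from 299 to 230 CPM in embryonic replicate 1, from 526 to 1090 CPM in replicate 2 and from 3500 to 2470 CPM in replicate 3. Its markers did not all move together. In replicate 3 most of them fell, such as Cx3cr1 from 274 to 17.6 CPM, Csf1r from 289 to 125 CPM and Lyz2 from 750 to 603 CPM. The exceptions there were Ptprc (59.9 to 162 CPM), Fcer1g (119 to 179 CPM) and Cd163, which was near 0 (0.0302 to 0.078 CPM). A change of the sum between treatments is therefore not a count of macrophages. The part of these cells in the Atf3 response was not tested.

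Maff, the small Maf protein induced by cytokines, was at 54.0, 116 and 35.7 CPM in embryonic stroma with PBS and at 81.9, 160 and 83.9 CPM with LPS. Its adult levels were 87.4, 157 and 114 CPM with PBS and 159, 181 and 149 CPM with LPS. All 6 pairs were higher with LPS, by 1.15-fold to 2.35-fold. The embryonic log2 fold change was 0.70 (SE 0.43, edgeR adjusted p = 0.71) without and 0.79 (SE 0.16, adjusted p = 0.019) with the block, and it did not pass without replicate number 1 (adjusted p = 0.073) or 3 (adjusted p = 0.11). In adult stroma it was 0.49 (SE 0.16, adjusted p = 0.15) with the block. With the stages fitted separately and blocked, the adult value passed (adjusted p = 0.034) and the embryonic one did not (adjusted p = 0.0591).

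Egr1, a zinc finger factor downstream of serum response factor, was at 30.6, 42.6 and 20.0 CPM in embryonic stroma with PBS and at 52.1, 73.0 and 42.5 CPM with LPS. In adult stroma it was at 18.9, 18.2 and 35.7 CPM with PBS and at 47.9, 21.2 and 52.7 CPM with LPS. All 6 pairs were higher, with a narrow range in embryonic stroma (1.70-fold, 1.71-fold and 2.12-fold) and a wide one in adult stroma (2.53-fold, 1.17-fold and 1.48-fold). With the block the log2 fold change was 0.90 (SE 0.18, edgeR adjusted p = 0.017) in embryonic stroma and 0.72 (SE 0.19, adjusted p = 0.072) in adult stroma, where it passed when that stage was fitted alone with the block (adjusted p = 0.0436). Without the block the embryonic value was 0.88 (SE 0.41, adjusted p = 0.51), and with it the call was lost without replicate number 3 (adjusted p = 0.12). Over the 10 factors, 8 were higher with LPS in all 3 embryonic pairs (all but Fos and Jund) beside 19.7% of tested genes. In adult stroma 7 were (all but Fos, Fosb and Jund), beside 22.6% of tested genes.

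**Figure D3:**
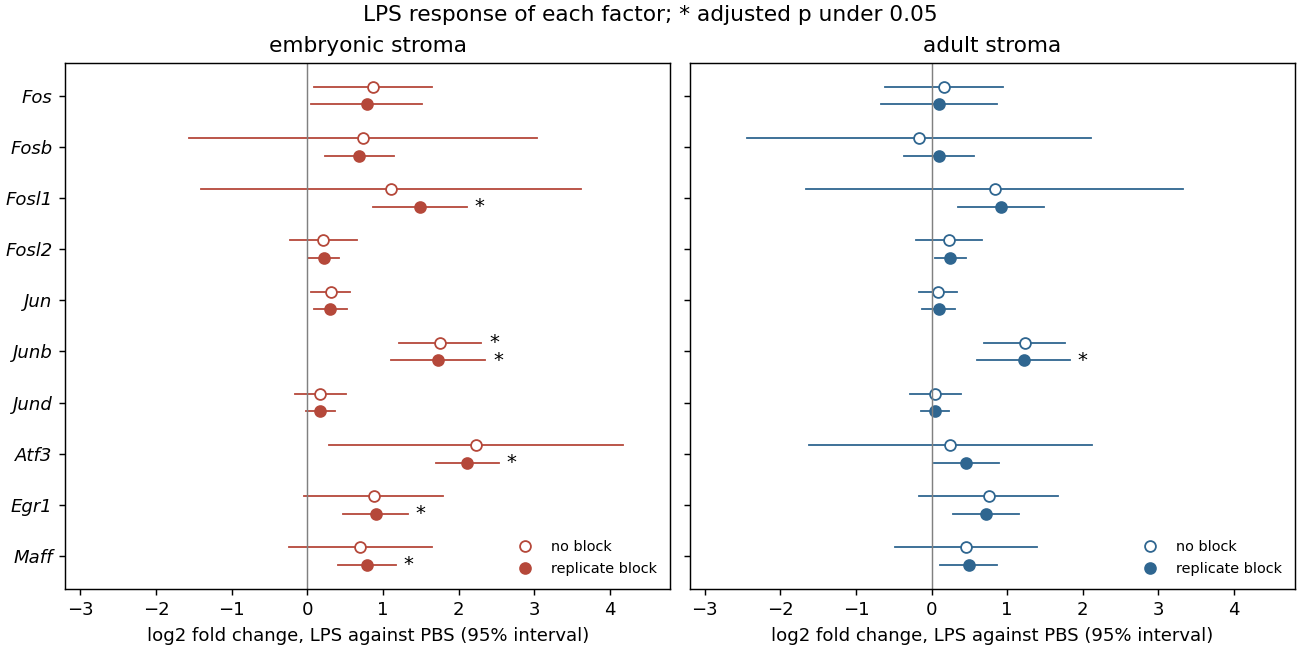
Log2 fold change of LPS against PBS with its 95% interval for each factor in embryonic (left) and adult (right) stroma, without the block (open points) and with the replicate block (filled points). Intervals of Fosb, Fosl1 and Atf3 shrink most with the block, and asterisks mark Junb in both embryonic fits and, with the block, Atf3, Fosl1, Egr1 and Maff in embryonic and Junb in adult stroma.

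The next question was whether the response differed between embryonic and adult stroma. Without the block no factor had an interaction of stage and LPS past the test, and neither did any tested gene (0%), while 2.25% of tested genes and none of the 10 factors had an unadjusted p under 0.05. DESeq2 called 0.192% of tested genes and none of the 10. With the block, 0.844% of tested genes passed, and Atf3 was the only factor among them. Its response was larger in embryonic stroma by 1.66 on the log2 scale (SE 0.26, edgeR adjusted p = 0.032). This call was lost without replicate number 1 (1.55, adjusted p = 0.11), 2 (1.82, adjusted p = 0.091) or 3 (1.55, adjusted p = 0.12), where 0.128%, 0.54% and 0.432% of tested genes passed. For Junb the difference was 0.52 with a 95% interval of -0.35 to 1.38, and for Egr1 it was 0.18 (-0.43 to 0.79), with 0 inside both intervals. Jund (0.13, from -0.13 to 0.39) and Fosl2 (-0.03, from -0.32 to 0.25) had the narrowest intervals.

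Embryonic and adult stroma were also compared within each treatment. No factor passed the test with PBS, where 4.08% of tested genes did, or with LPS, where 5.31% did. The unadjusted p was under 0.05 for 1 of the 10 with PBS, beside 19.8% of tested genes, and for 3 with LPS, beside 22% of tested genes. DESeq2 called none with PBS (11.9% of tested genes) and Fos with LPS (13.1%). With PBS, Fos was higher in embryonic stroma by 0.42 (SE 0.35, edgeR adjusted p = 0.58) on the log2 scale. With LPS the difference was 1.13 (SE 0.35, adjusted p = 0.092), and it passed the test without embryonic LPS replicate 1 (adjusted p = 0.034), the library in which Fos was not above its PBS level. Fosl2 had a higher mean in adult stroma with both treatments, and with PBS the nearest libraries of the stages were at 172 and 170 CPM. Its embryonic minus adult difference was -0.49 (SE 0.20, adjusted p = 0.20) with PBS and -0.51 (SE 0.20, adjusted p = 0.17) with LPS. Junb with LPS was higher in embryonic stroma by 0.68 (SE 0.24, adjusted p = 0.13), and the groups overlapped.

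Per kilobase of exon, the order of mean levels in embryonic stroma with PBS ran from Jund (48.6 ± 4.5 CPM per kilobase, SD, n = 3) through Maff (26.4 ± 16.2), Jun (23.8 ± 1.1), Junb (22.5 ± 4.5) and Fosl2 (16.3 ± 1.6) to Fosl1 (7.40 ± 10.1), Atf3 (7.02 ± 3.29), Egr1 (6.93 ± 2.51), Fos (3.86 ± 0.28) and Fosb (0.978 ± 0.478). Jund was above the others in all 3 libraries. From Maff down to Fosl2 neighbours in the order overlapped, and so did Fosl1, Atf3 and Egr1. With LPS the highest mean in embryonic stroma was that of Junb (74.9 ± 23.8, from 57.7 to 102), and its libraries overlapped with those of Jund (53.8 ± 4.2, from 50.8 to 58.5). In adult stroma with PBS, Jund (52.5 ± 8.4), Maff (46.1 ± 13.6), Jun (24.3 ± 3.1), Fosl2 (23.0 ± 6.6) and Junb (20.3 ± 2.5) headed the order, and with LPS Maff (62.9 ± 6.3), Jund (54.0 ± 9.8) and Junb (47.4 ± 9.9) did. Neighbours among these overlapped, except Maff and Jun with PBS. Fos (2.88 ± 0.27 with PBS and 3.19 ± 1.24 with LPS) and Fosb (3.07 ± 3.50 and 2.72 ± 2.41) were the lowest in adult stroma and overlapped.

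How far a factor was tied to its culture set the 10 apart from each other. The SD of log2 CPM within groups was 1.57 for Fosb and for Fosl1 and 1.20 for Atf3, and 1.45%, 1.46% and 4.59% of tested genes had a larger one. Egr1 (0.56), Maff (0.56) and Fos (0.47) lay above the median of all tested genes (0.28), Junb (0.32) was near it, and Fosl2 (0.25), Jund (0.19) and Jun (0.13) lay below. Deviations of the LPS and the PBS library of a culture from their group means went together over the 6 cultures for Fosb (r = 0.98), Fosl1 (0.96), Atf3 (0.95), Fosl2 (0.89) and Maff (0.88). For Jun (-0.03) and Fos (-0.50) they did not, and for Junb they were opposed (-0.97): in each stage the culture with the least Junb in PBS had the most with LPS. These are descriptions over 6 cultures, in which a culture means the PBS and the LPS library with the same number of a stage.

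Factors that differed between cultures did so partly together. Within groups, Fosb went with Fosl2 (r = 0.90 over 12 libraries), with Atf3 (0.81) and with Fosl1 (0.75), and Fosl1 went with Egr1 (0.75). The libraries share cultures, so these 12 values are not independent. In adult stroma, Fosb, Fosl1, Fosl2, Jun and Atf3 had their 3 libraries in the reverse order of the endothelial sum in both treatments, lowest in replicate 2. This was also the order by the macrophage sum in both adult groups, which 14.9% of all tested genes shared, and the order by the mesothelial sum. Over the 4 groups, Fosb, Fosl1 and Fosl2 followed the order by the mesothelial sum in 3, and no factor followed it in all 4, as 2.99% of tested genes did. The part of these cells in the differences between cultures was not tested.

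Over all 12 libraries, the genes whose log2 CPM was most like that of Junb were Gm11435 (r = 0.98), Nfkbiz (0.97) and H2-K2 (0.97). Nfkbiz, an atypical inhibitor of kappa B induced by Toll-like receptor signals, was at 12.8 to 20.8 CPM in the PBS libraries of both stages and at 144, 251 and 465 CPM in embryonic and 193, 101 and 148 CPM in adult LPS libraries. Its culture order with LPS was that of Junb in both stages. Gm11435 and H2-K2, one of a family of near-identical genes between which reads may be split, were under 10 CPM in all libraries. For Fos the nearest genes were Sil1, Ikzf1 and Cpd (r = 0.90 to 0.91), and Ikzf1, a factor of blood cells, was at 105 CPM in embryonic replicate 3 with LPS against 0.154 to 2.63 CPM in adult stroma. Fosl1 was nearest to Phldb1, Fam49a and Nfe2l3 (0.96 to 0.97), Fosb to Kif9, Sparc and Vnn1 (0.94 to 0.95), Fosl2 to Lrp10, Srsf5 and Trp53inp2 (0.94 to 0.96) and Atf3 to C2, G530011O06Rik and Mob3c (0.91 to 0.93). Jun, Jund, Egr1 and Maff had their nearest genes at r = 0.92, 0.87, 0.92 and 0.92. These values come from 12 libraries that share cultures and treatments, and the genes were picked as the highest of 13038.

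Lists of genes around AP-1 were counted in the same fits. Of all tested genes, 2.67% rose and 0.0767% fell in embryonic stroma and 0.598% rose and 0.00767% fell in adult stroma without the block. With it, 9.43% rose and 3.12% fell in embryonic and 4.69% rose and 1.51% fell in adult stroma. Of 36 other AP-1 and related basic leucine zipper factors, 31 were tested. In embryonic stroma 3 rose and 1 fell without the block, 10 rose and 2 fell with it, and in adult stroma none passed without the block and 5 rose with it. Their median log2 fold change with the block was 0.27 in embryonic and 0.09 in adult stroma. Cebpd, an acute-phase C/EBP factor, went from 9.08 ± 2.13 to 66.6 ± 54.4 CPM in embryonic stroma (2.64, edgeR adjusted p = 0.0033, with the block) and from 15.9 ± 11.7 to 61.8 ± 8.9 in adult stroma (2.19, adjusted p = 0.013). Creb5 rose in embryonic stroma without and with the block (1.83, adjusted p = 0.0067, and 1.76, adjusted p = 0.0034). Batf2 and Batf, partners of Jun proteins in immune cells, rose in embryonic stroma with the block by 5.74 (adjusted p = 0.0020) and 3.32 (adjusted p = 0.00042). Batf2 was at 0, 0 and 0.303 CPM with PBS and at 0.772, 3.59 and 10.6 CPM with LPS, again highest in replicate 3.

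Cebpa, a C/EBP factor of macrophages and fat cells, fell in embryonic stroma (-4.77, edgeR adjusted p = 0.0095), from 5.24, 9.23 and 39.8 CPM in replicates 1, 2 and 3 with PBS to 0.526, 0.923 and 0.468 CPM with LPS. Its PBS level was highest in embryonic replicate 3, the culture with the highest macrophage sum. Bach1, Cebpb and Nfe2l2 rose in adult stroma with the block by 1.11, 0.81 and 0.74, and by similar values in embryonic stroma (0.83, 1.06 and 0.75). Nfe2l1, the most abundant of the list, rose by 0.60 in embryonic stroma (adjusted p = 0.018 without the block). With the block it also rose in adult stroma, by 0.47 (adjusted p = 0.0134).

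Of 37 other immediate-early genes, 36 were tested. Without the block Klf6 alone rose in embryonic stroma (0.98, edgeR adjusted p = 0.031) and none changed in adult stroma. With the block 9 rose and 1 fell in embryonic stroma (9.43% and 3.12% of tested genes) and 6 rose and 2 fell in adult stroma (4.69% and 1.51%), with medians of 0.26 and 0.19. Ier3, a survival gene under NF-kB control, rose by 1.86 in embryonic (adjusted p = 0.00042) and 1.85 in adult stroma (adjusted p = 0.00096). Gadd45b rose by 1.26 and 0.75, and Nr4a3, a nuclear receptor, by 2.91 in embryonic stroma. Myc and Btg2 rose in adult stroma by 1.13 and 0.83. In embryonic stroma Btg2 rose too, by 0.74 (adjusted p = 0.0164), and Myc was at 0.865 and did not pass (adjusted p = 0.054). Ctgf, the most abundant, was at 3350 ± 1020 CPM in embryonic PBS and 3560 ± 358 CPM in embryonic LPS libraries and did not pass the test in either fit.

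Among kinases above AP-1, 28 of 29 were tested. Map3k8, the kinase that links Toll-like receptors to ERK, was the only one to rise without the block in embryonic stroma, from 1.41 ± 0.96 to 25.8 ± 20.3 CPM (4.21, edgeR adjusted p = 0.0087), and with the block it rose by 2.56 in adult stroma (adjusted p = 0.0022). With the block 3 rose and 2 fell in embryonic stroma, beside 9.43% and 3.12% of all tested genes, and 3 rose in adult stroma, beside 4.69%. Beside Map3k8, Mapk11 rose by 0.90 and Mapkapk3 by 0.37 in embryonic stroma, where Map3k1 (-0.78) and Mapk14 (-0.38) fell, and Mapkapk3 and Map2k3 each rose by 0.49 in adult stroma. Mapkapk2, the most abundant, did not pass (0.59, adjusted p = 0.085, in embryonic stroma with the block). Of 11 genes for serum response factor and its partners, none passed without the block, and with it Ets2 (1.34) and Ets1 (0.99) rose in embryonic and Ets1 (1.01) in adult stroma. Srf itself was at -0.22 and -0.19, neither past the test.

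Of 32 genes known as AP-1 targets, 31 were tested. Without the block 5 rose in embryonic and 2 in adult stroma, and with it 14 rose and 1 fell in embryonic (9.43% and 3.12% of tested genes) and 15 rose and 1 fell in adult stroma (4.69% and 1.51%), with medians of 0.90 and 0.71. Many of these genes are also NF-kB targets. Cxcl1, a neutrophil chemokine, rose most, from 0.131 ± 0.046 to 398 ± 181 CPM in embryonic stroma (11.5, edgeR adjusted p = 1.35e-05) and from 0.718 ± 0.206 to 854 ± 221 CPM in adult stroma (10.2, adjusted p = 1.9e-05). Ccl2, a monocyte chemokine, rose by 7.26 and 4.92 and Il6 by 4.98 in embryonic stroma, without the block. With the block Il6 also rose in adult stroma, by 3.26 (adjusted p = 0.015). Mmp13, a collagenase with a well-known AP-1 element, was at 2.04 ± 1.61 and 665 ± 807 CPM in embryonic and 0.757 ± 0.606 and 21.2 ± 11.6 CPM in adult stroma with PBS and LPS. With the block its fold change was 8.07 and 4.88, and the difference of 3.20 between stages passed the test (adjusted p = 0.0275). It also passed for Fgf7, a growth factor for epithelial cells (2.25, adjusted p = 0.00749), which was at 0.172 ± 0.0923 and 1.34 ± 0.531 CPM in embryonic and 35.3 ± 16.0 and 57.5 ± 26.3 CPM in adult stroma with PBS and LPS. Of all tested genes, 0.844% passed this test. The embryonic PBS levels of Fgf7 and Cxcl1 were near that of 3 counts, 0.0908 to 0.0914 CPM in those libraries, so their folds rest on few counts. Mmp9 rose by 4.76 in adult and by 2.62 in embryonic stroma (adjusted p = 0.00505) with the block.

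**Figure D4:**
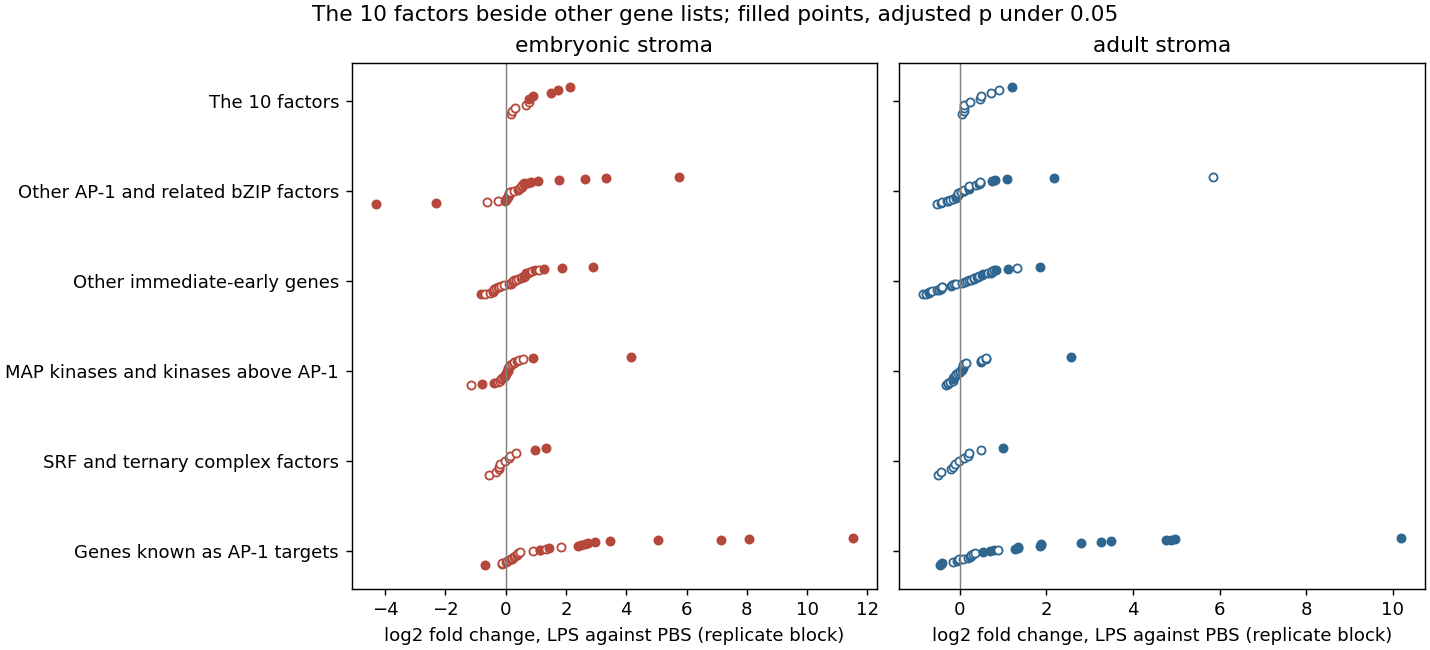
Log2 fold change of LPS against PBS with the replicate block for the 10 factors and for every tested gene of 5 other lists, in embryonic (left) and adult (right) stroma, with filled points for an adjusted p under 0.05. The 10 factors lie between 0.17 and 2.12 in embryonic stroma, while genes known as AP-1 targets reach 11.5.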

How the data were processed

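The authors trimmed the reads, mapped them to GRCm38.p6 (mm10) with STAR, kept uniquely mapped reads and deposited raw counts per gene, 1 table per library, without normalization. Each table gives counts without regard to strand and for each strand. The libraries were stranded, and the strand column with the larger total was used, since the other held 1.14% to 1.98% of the counts of both strands together. Stage, treatment and replicate number came from the sample labels.

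The analysis used edgeR 4.0.16 in R 4.3.3 (TMM, 1 model of 4 groups, quasi-likelihood test). A gene was tested if its CPM exceeded 0.5 in every library of 1 or more groups, and p-values were adjusted by the Benjamini-Hochberg method over all 13038. A standard error is the absolute log2 fold change divided by the square root of F, and log2 CPM used a prior count of 2. Depth sets the lowest level that can be read (3 counts). Intervals without the block cover only the spread between libraries of a group. With the block, the level of each culture is taken out, and intervals cover only how the LPS difference varied between cultures. DESeq2 1.42.0 was an alternative. In each stage, deviations of the LPS and the PBS library that share a number correlated over genes (0.759, 0.784 and 0.709 in embryonic, 0.803, 0.849 and 0.61 in adult stroma). The pairing comes from these numbers, since the sources used here do not state it, and the replicate number within a stage was used as a block. In simulated counts of 13038 genes with a culture SD of 0.35 (log2), the fit without the block recovered 8% and the fit with it 98% of changes of 1 (log2) in embryonic stroma, and both recovered 100% of changes of 2. The simulated LPS and PBS libraries of a number were given the same culture effect, so this cannot tell whether the pairing holds in the data. Fosb, Fosl1 and Atf3 had a much larger SD within groups than that setting, and Egr1 (0.56), Maff (0.56) and Fos (0.47) also had a larger one.

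Levels per kilobase used exon unions of GENCODE vM21. Members and gene lists were chosen with earlier results of these data known. Genes named from a list are up to 4 with the largest absolute fold change past the test per stage and fit and the one with the highest mean CPM, and for likeness the 3 with the highest correlation of log2 CPM. Mapkapk3, Myc, Btg2 and Mmp9 in embryonic stroma, Il6 and Nfe2l1 in adult stroma and Fgf7 were named outside this rule. Their values had been seen by then. Figures were drawn with matplotlib 3.10.9.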

Additional observations from a re-analysis of the deposited data

Results flagged for a closer look

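The response of Atf3 to LPS differed between stages by the test of the interaction in the fit with the replicate block. It was larger in embryonic stroma by 1.66 on the log2 scale, with folds of 3.32, 4.13 and 5.40 in the embryonic and 1.01, 1.83 and 1.52 in the adult cultures. Without the block the difference was 1.99 with an adjusted p of 1 in edgeR. With the block the adjusted p ranged from 6.9e-07 in DESeq2 to 0.12 over the alternatives. The adult culture with the smallest fold, replicate 1, had the highest adult level of Atf3 with PBS (37.0 CPM).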

How the results depend on the processing

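The count of factors past the test in embryonic stroma (1) was 5 with the replicate block, also with other size factors or no filter, 6 in DESeq2 with the block, 0 when each stage was fitted alone (Junb lost), 3 so with the block (Junb, Atf3 and Egr1), 0 with the fold threshold of the study's legend (absolute log2 fold change of 2) and 1 to 5 when replicates were left out. In adult stroma (0) it was 1 with the block, also with other size factors, 2 with the block and no filter, 1 in DESeq2, 3 there with the block, 1 (Junb) and 4 (Fosl1, Junb, Egr1 and Maff) for the stage alone without and with the block, and 0 to 2 with replicates left out. For the interaction (0) it was 1 in each of the 4 fits with the block within stages that used all libraries. The count between stages with LPS (0) was 1 in DESeq2 and 0 to 1 with replicates left out. Fits of fewer libraries have fewer degrees of freedom, yet in adult stroma the stage alone gave more calls than the shared fit. The cause of the differences between settings was not tested. When a library was left out, its group's spread was taken from the shared fit.

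Signs turned for log2 fold changes that did not pass the test without the block, of which Fosl1 in embryonic stroma passed with it and turned (-0.41) without embryonic LPS replicate 2 in the fit without the block. For Fosb in adult stroma (-0.17) the value was 0.094 with the block, 0.0289 for the stage alone with the block, 0.081 with the block and other size factors, 0.083 with the block and no filter and 0.11 in DESeq2 with the block. Between stages with PBS, Atf3 was at 0.20 with the block across stages, and with LPS Jund was at -0.00507 without the filter. With replicates left out, embryonic values ran from -0.41 to 3.34 for Fosl1. Adult values ran from -1.06 to 1.31 for Fosb, -0.0084 to 0.16 for Jun, -0.12 to 0.19 for Jund, -0.55 to 1.49 for Atf3 and -0.12 to 0.49 for Fos. Interactions ran from -1.24 to 2.50 for Fosl1, -0.27 to 0.14 for Fosl2, -0.26 to 0.56 for Egr1, -0.18 to 0.87 for Maff, -0.57 to 1.79 for Fosb and -0.018 to 0.29 for Jund. Embryonic minus adult values with PBS ran from -0.65 to 1.06 for Atf3, -0.12 to 0.042 for Jun and -0.19 to 0.032 for Jund, and with LPS from -0.070 to 0.18 for Jund and -1.37 to 0.14 for Fosb. The replicate block changed no call other than those given. Numbers did not pair embryonic with adult libraries (correlations -0.31 to -0.0020).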
